A study of Mus musculus with 6 samples.

Results

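The genes described here encode feedback inhibitors of the extracellular signal-regulated kinase (ERK) pathway. They are 5 dual-specificity phosphatase genes (Dusp1, Dusp2, Dusp4, Dusp5 and Dusp6), the Sprouty genes Spry1 and Spry2, the Sprouty-related genes Spred1 and Spred2, and Phlda1. They were chosen by name, and all 10 were found among the 38926 genes of the deposited table. All 10 also reached the mean of 1 FPKM (fragments on a gene, scaled for its length and for library size) that was required for testing, as did 11436 genes in all. The libraries came from LSK cells, the bone marrow fraction without lineage markers but with Sca-1 and Kit, which contains stem cells and multipotent progenitors. Wild-type C57BL/6 mice aged 8 to 12 weeks received haloperidol, a dopamine receptor antagonist used as an antipsychotic, or DMSO, its vehicle, by injection on 3 consecutive days. Cells were released from femur and tibia with collagenase and sorted with the drug or the vehicle still present, and 3 libraries were made per group. Whether replicates came from separate mice is not stated in the labels, so the p-values cover only the variation among these libraries, part of which may be technical.

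Growth factor and cytokine receptors activate Ras, which starts a kinase cascade of RAF, MEK and ERK. Active ERK induces genes whose products dampen the pathway again. Dual-specificity phosphatases remove the activating phosphates from MAP kinases, with DUSP1, DUSP2, DUSP4 and DUSP5 acting in the nucleus and DUSP6 in the cytoplasm. Sprouty and Spred proteins act between the receptor and RAF, the latter by bringing the Ras inactivator neurofibromin to the membrane. PHLDA1 is a PH-like domain protein whose gene is often read as an ERK output. In blood progenitors the pathway lies downstream of receptors such as KIT and FLT3.

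The promoters of 3 of the phosphatase genes are shown because Dusp1 and Dusp6 fell by similar amounts in the data below, while Dusp5, next to Dusp1 in abundance, did not pass the test. RefSeq promoters (GRCm38.p6) were found for 8 of the 10 genes, all but Dusp4 and Phlda1. The 200 bases from 250 to 51 before the annotated start were searched on both strands for the cyclic AMP response element TGACGTCA, its core TGACG (which the full element contains on each strand), the AP-1 site TGANTCA, the ETS core CCGGAA and the CArG box bound by serum response factor. The sequences run 5′ to 3′ on the gene's strand, Dusp1 at chr17:26508523-26508722 (minus strand), Dusp5 at chr19:53528895-53529094 (plus strand) and Dusp6 at chr10:99262981-99263180 (plus strand), and capitals mark every match.
Dusp1: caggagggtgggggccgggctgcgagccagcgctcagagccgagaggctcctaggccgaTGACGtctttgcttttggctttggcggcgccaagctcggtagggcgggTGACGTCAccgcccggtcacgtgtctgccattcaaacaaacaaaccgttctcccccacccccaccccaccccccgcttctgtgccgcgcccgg
Dusp5: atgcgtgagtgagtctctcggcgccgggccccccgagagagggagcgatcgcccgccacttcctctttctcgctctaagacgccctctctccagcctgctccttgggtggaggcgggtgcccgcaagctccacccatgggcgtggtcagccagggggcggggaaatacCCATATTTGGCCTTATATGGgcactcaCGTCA
Dusp6: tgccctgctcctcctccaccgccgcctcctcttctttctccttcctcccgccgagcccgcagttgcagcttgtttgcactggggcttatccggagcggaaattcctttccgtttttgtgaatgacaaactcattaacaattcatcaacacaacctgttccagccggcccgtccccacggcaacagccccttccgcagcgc

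The Dusp1 stretch held a full cyclic AMP response element 143 to 136 bases before the start, which 0.828% of the 32851 RefSeq promoters contained in the same window. It also held a separate TGACG core 191 to 187 bases before the start, a motif present in 12.7% of promoters. The Dusp5 stretch held adjoining CArG boxes, CCATATTTGG and CCTTATATGG, from 82 to 63 bases before the start, where 1.16% of promoters had at least 1, and a core on the other strand 55 to 51 bases before it. None of the searched motifs occurred in the Dusp6 stretch, nor in those of Dusp2, Spry1, Spry2, Spred1 and Spred2. The AP-1 site was in 5.57% of promoters and the ETS core in 8.03%. These matches describe sequence, and binding was not measured. Whether they bear on which genes fell was not tested.

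Each library held 8523556 to 8969045 reads on genes, recovered from the spacing of the FPKM values. A gene with 0 reads could still have up to 0.334 to 0.352 RPM (3 counts of the library), a limit for counting error only. Of all tested genes 24.5% differed between the groups (limma, adjusted p below 0.05), and their median difference was 0.0022 on the log2(FPKM + 1) scale. The labels name no batch, and a batch confounded with the groups cannot be told apart from haloperidol. The gate genes Kit (87.8 ± 7.38 and 81.04 ± 9.78 FPKM in DMSO and haloperidol, mean ± SD, n = 3 each) and Ly6a, which encodes Sca-1 (136 ± 10.2 and 138 ± 10.5 FPKM), were abundant in all 6 libraries and did not pass the test.

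The comparison asked how the feedback genes of LSK cells differed after haloperidol. Of the 10 genes, 6 fell (Dusp1, Dusp2, Dusp4, Dusp6, Spred1 and Phlda1), 0 rose and 4 did not pass the test (Dusp5, Spry1, Spry2 and Spred2). Among all tested genes 13.0% fell and 11.5% rose. The falls were moderate, and 2 of the 10 genes, Dusp4 and Phlda1, fell by at least 1.5-fold on the log2(FPKM + 1) scale, as did 2.89% of all tested genes. The median difference of the 10 was -0.31 on that scale. No member rose at an unadjusted p below 0.05 either, and limma's voom on the recovered reads also called 6 lower and 0 higher. In bulk RNA, fewer cells of a type and less RNA per cell cannot be told apart.

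In each of the 6 genes that fell, every haloperidol library was below every DMSO library, and the groups overlapped in the other 4. Among all tested genes the groups did not overlap in 43.1%, with haloperidol lower in 22.1% and higher in 21.0%. The count of 6 became 4 without DMSO replicate 1, since the calls for Dusp2 and Spred1 ended there, and 4 when genes of low value were not filtered out. An exact two-sided permutation test of 1 gene alone cannot go below 0.1 with 3 libraries against 3, and the 6 genes that fell were at that smallest p.

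**Figure D1:**
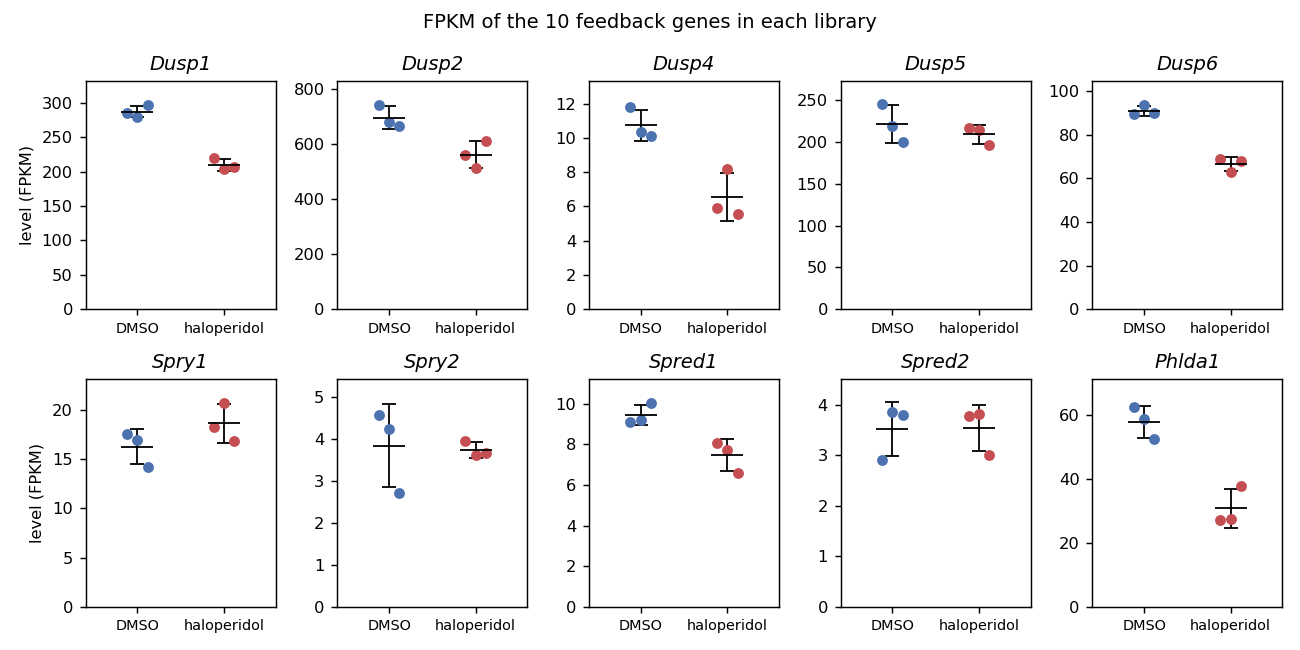
FPKM of each of the 10 feedback genes (vertical axes, linear and starting at 0) in 3 DMSO and 3 haloperidol libraries, with 1 point per library, the mean as a line and the SD as a bar. In Dusp1, Dusp2, Dusp4, Dusp6, Spred1 and Phlda1 all haloperidol points lie below all DMSO points.

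The members covered a wide range of levels per length. In DMSO libraries Dusp2 had the highest mean at 695 FPKM, followed by Dusp1 at 287, Dusp5 at 222, Dusp6 at 91.1, Phlda1 at 57.98, Spry1 at 16.2, Dusp4 at 10.7, Spred1 at 9.44, Spry2 at 3.85 and Spred2 at 3.52 FPKM. Dusp2 and Dusp1 stood at percentiles 99.6 and 98.4 of all tested genes. Neighbours in this order did not overlap between DMSO libraries, except Spry2 (2.71 to 4.57 FPKM) and Spred2 (2.91 to 3.86 FPKM). In haloperidol libraries Dusp1 (203 to 219.7 FPKM) overlapped Dusp5 (196 to 216 FPKM), and Dusp4 (5.53 to 8.17 FPKM) overlapped Spred1 (6.60 to 8.09 FPKM).

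Dusp1 encodes a nuclear phosphatase that also acts on p38 and JNK, and it is a classic immediate early gene. It was at 285, 279.8 and 297 FPKM in DMSO replicates 1, 2 and 3 and at 219.7, 203 and 206 FPKM in haloperidol replicates 1, 2 and 3. The groups lay well apart and each was tight, with an SD of 3.00% and 4.19% of the mean. The mean fell from 287 ± 8.61 to 209.7 ± 8.79 FPKM (n = 3 each), 27.00% lower, a difference of -0.45 (SE 0.049, limma adjusted p = 5.68e-04). Dusp1 lies at chr17:26505591-26508472 in RefSeq, and a longer GENCODE M21 model of the gene overlaps Ergic1 on the other strand, whose reads there cannot be told apart without strand.

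Dusp2, known as a phosphatase of activated lymphocytes, lies at chr2:127336159-127338377. It was at 742, 679 and 665 FPKM in DMSO replicates 1, 2 and 3 and at 559.7, 513 and 612 FPKM in haloperidol replicates 1, 2 and 3. The highest haloperidol library came closest to the DMSO libraries without reaching them. The mean fell from 695 ± 40.9 to 562 ± 49.4 FPKM, 19.2% lower, a difference of -0.31 (SE 0.072, limma adjusted p = 0.0164). This call ended without DMSO replicate 1 (adjusted p = 0.0598), without haloperidol replicate 1 (adjusted p = 0.0507) and when low values were kept (adjusted p = 0.0692).

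Dusp4, a nuclear ERK and JNK phosphatase, was the least abundant of these phosphatases and lies at chr8:34807610-34819894. It had 135 to 288 reads per library, and its FPKM were 11.8, 10.3 and 10.1 in DMSO replicates 1, 2 and 3 and 5.94, 8.17 and 5.53 in haloperidol replicates 1, 2 and 3. Haloperidol replicate 2 was nearer to the DMSO libraries than the other two. The mean fell from 10.7 ± 0.908 to 6.55 ± 1.42 FPKM, 39.1% lower, a difference of -0.65 (SE 0.13, limma adjusted p = 0.00812), the largest fall among the 5 phosphatase genes. The call held under all 18 other settings tried.

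Dusp5, a nuclear phosphatase selective for ERK, lies at chr19:53529145-53541809. Its FPKM were 246, 219 and 200.4 in DMSO replicates 1, 2 and 3 and 216, 215 and 196 in haloperidol replicates 1, 2 and 3. The groups overlapped, and the DMSO libraries were the more spread. The means of 222 ± 22.8 and 209 ± 11.1 FPKM did not differ past the threshold (limma adjusted p = 0.482), with a difference of -0.08 and a 95% interval of -0.26 to 0.10. An antisense gene of GENCODE M21 overlaps Dusp5, and its reads cannot be told apart from those of Dusp5 without strand.

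Dusp6, the cytoplasmic ERK phosphatase and a common gauge of ERK activity, lies at chr10:99263231-99267489. Its FPKM were 89.5, 93.7 and 90.2 in DMSO replicates 1, 2 and 3 and 69.1, 63.00 and 67.9 in haloperidol replicates 1, 2 and 3. The groups were as clearly apart as those of Dusp1. The mean fell from 91.1 ± 2.25 to 66.7 ± 3.24 FPKM, 26.8% lower, a difference of -0.45 (SE 0.052, limma adjusted p = 7.80e-04). The calls for Dusp1 and Dusp6 held under all 18 other settings, with an adjusted p of at most 0.00497 and 0.00560.

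**Figure D2:**
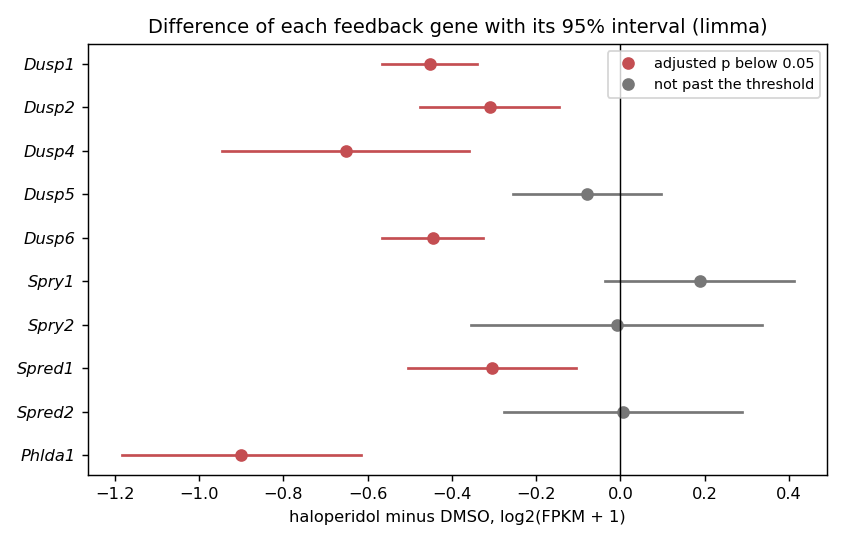
Difference between haloperidol and DMSO for each feedback gene on the log2(FPKM + 1) scale (horizontal axis), with points for the estimate, lines for the 95% interval from limma, and colour for the test. The intervals of Dusp5, Spry1, Spry2 and Spred2 include 0, and Phlda1 lies farthest to the left at -0.90.

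Ratios within libraries, in which scaling between libraries has no part, restate these values for pairs of family members. The pairs set genes that fell against Dusp5 and Spred2 with the calls known, so the ratios are a description and no support for the contrast. The log2 ratio of Dusp1 to Dusp5 was 0.22, 0.35 and 0.57 in the DMSO libraries and 0.023, -0.08 and 0.07 in the haloperidol libraries, so the haloperidol values were all lower. The ratios of Dusp6 to Dusp5, with group means of -1.28 ± 0.16 and -1.65 ± 0.12, and of Dusp4 to Dusp5, with -4.36 ± 0.051 and -5.02 ± 0.26, did not overlap between groups either. For Dusp2 to Dusp5 the groups overlapped, with means of 1.65 ± 0.07 and 1.42 ± 0.20. The ratio of Spred1 to Spred2 had means of 1.43 ± 0.20 and 1.08 ± 0.06 without overlap.

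**Figure D3:**
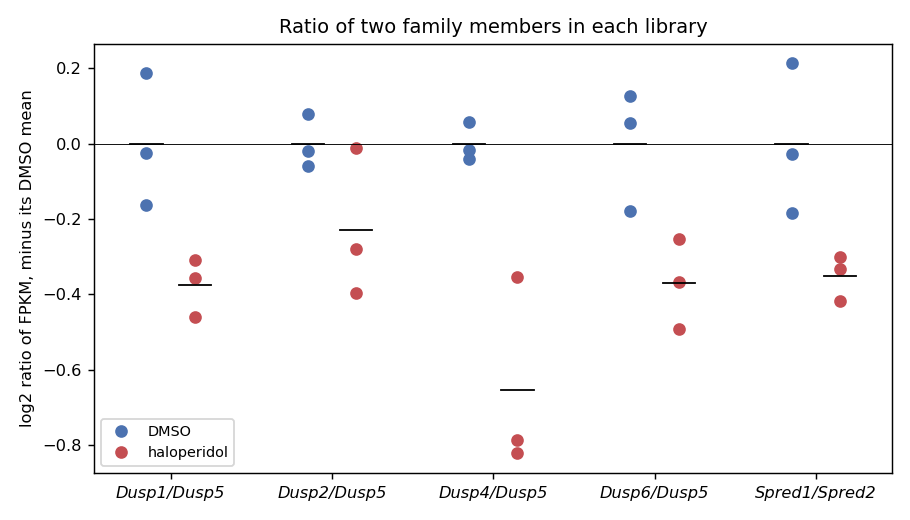
Log2 ratio of the FPKM of paired family members within each library, minus the mean of the DMSO libraries (vertical axis), with 1 point per library and the group mean as a line. The haloperidol points lie below the DMSO points for every pair except Dusp2 and Dusp5.

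Summed over the 10 MAP kinase phosphatase genes of the class (the 5 members with Dusp7, Dusp8, Dusp9, Dusp10 and Dusp16), FPKM were 1389, 1296 and 1276 in the DMSO libraries and 1087, 1018 and 1104 in the haloperidol libraries. Every haloperidol sum was lower than every DMSO sum. Dusp2 and Dusp1, which made up most of the sum, had each fallen without overlap. The sum and the shares therefore restate the values above and are no support for them. Dusp2 made up 52.6% ± 0.691 and 52.5% ± 2.64 of the sum in DMSO and haloperidol (SD, n = 3). Dusp1 made up 21.8% ± 1.37 and 19.6% ± 0.831 and Dusp6 6.91% ± 0.413 and 6.24% ± 0.108. The share of Dusp5 was 16.8% in DMSO and 19.6% in haloperidol, and each of the other 6 genes stayed below 1% of the sum.

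The Sprouty genes did not pass the test. Spry1 (chr3:37639947-37644599) was at 17.6, 16.9 and 14.2 FPKM in DMSO replicates 1, 2 and 3 and at 18.3, 20.7 and 16.9 FPKM in haloperidol replicates 1, 2 and 3. The groups overlapped slightly, with means of 16.2 ± 1.78 and 18.6 ± 1.96 FPKM, a difference of 0.19 with a 95% interval of -0.036 to 0.41 (limma adjusted p = 0.198). Spry2 (chr14:105891947-105896819) had only 51 to 85 reads per library, which gives a counting error of up to 14.00% of the value. Its FPKM were 4.57, 4.25 and 2.71 in the DMSO libraries and 3.96, 3.61 and 3.66 in the haloperidol libraries. DMSO replicate 3 stood below all others, and the interval of -0.35 to 0.34 leaves room for a change as large as that of Dusp2 in either direction (limma adjusted p = 0.975). Of their relatives, Spry4 had 8 to 23 reads per library and Spry3 had 0, and neither was tested.

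Of the Spred genes 1 fell. Spred1 (chr2:117121071-117182279) was at 9.11, 9.18 and 10.04 FPKM in DMSO replicates 1, 2 and 3 and at 8.09, 7.73 and 6.60 FPKM in haloperidol replicates 1, 2 and 3. Its haloperidol libraries were all lower, and the mean fell from 9.44 ± 0.515 to 7.47 ± 0.774 FPKM, 20.9% lower, a difference of -0.30 (SE 0.088, limma adjusted p = 0.0362). The call ended in 7 of the 18 other settings, among them every omission of a single library except haloperidol replicate 1 (adjusted p from 0.0416 to 0.111 over the 6 omissions) and the fit that kept low values (adjusted p = 0.0819). Spred2 (chr11:19924442-20024026) was at 2.91, 3.86 and 3.79 FPKM in DMSO and 3.77, 3.82 and 3.01 FPKM in haloperidol. Both groups had 1 low library, and the difference was 0.0064 with an interval of -0.28 to 0.29 (limma adjusted p = 0.978). Nf1, which encodes neurofibromin, had 21 to 40 reads per library and was not tested.

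Phlda1 (chr10:111506286-111508649) had the largest fall of the 10 genes. It was at 62.6, 58.8 and 52.5 FPKM in DMSO replicates 1, 2 and 3 and at 27.3, 27.4 and 38.02 FPKM in haloperidol replicates 1, 2 and 3. Haloperidol replicate 3 lay between the other haloperidol libraries and the DMSO libraries. The mean fell from 57.98 ± 5.10 to 30.9 ± 6.15 FPKM, 46.7% lower, a difference of -0.90 (SE 0.12, limma adjusted p = 0.00170), and the call held under all 18 other settings. GENCODE M21 genes on the other strand overlap Phlda1 and Spry1, and their reads cannot be told apart from those of these genes without strand.

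Few of the other dual-specificity phosphatases passed the test, and their share called was close to the 24.5% of all tested genes. Of 5 other MAP kinase phosphatase genes 4 were tested, 1 fell and 1 rose. Dusp8, a JNK and p38 phosphatase, fell from 2.37 ± 0.266 to 0.972 ± 0.161 FPKM, a difference of -0.77 (SE 0.13, limma adjusted p = 0.00371). Dusp10, which acts on the same kinases, rose from 4.30 ± 0.742 to 7.15 ± 0.386 FPKM, a difference of 0.63 (SE 0.11, limma adjusted p = 0.00546), and both calls held in every other setting in which the gene was tested. Dusp7, a cytoplasmic ERK phosphatase related to DUSP6, was at 5.82 ± 0.699 and 5.49 ± 0.300 FPKM and did not pass (adjusted p = 0.645). Of 14 atypical dual-specificity phosphatases 8 were tested, of which 1 rose and 0 fell by limma, with 0 lower at an unadjusted p below 0.05 and 0 lower by voom. Their median difference was -0.12. Haloperidol was lower without overlap in Dusp11, Dusp19 and Dusp22, as in 22.1% of all tested genes. Dusp18 rose from 1.86 ± 0.261 to 3.66 ± 0.606 FPKM without overlap. Dusp23, the most abundant of the atypical genes, was at 12.5 ± 0.232 and 12.7 ± 0.530 FPKM. Among 3 tested genes of other feedback inhibitors, Phlda2 fell from 5.64 ± 1.24 to 2.66 ± 1.41 FPKM on 7 to 47 reads, but the call ended in 12 of 17 other settings (limma adjusted p = 0.0484, and 0.0194 to 0.152 over those settings). Errfi1, an inhibitor of the epidermal growth factor receptor, was at 7.06 ± 0.238 and 8.78 ± 1.57 FPKM. Haloperidol was higher without overlap, as in 21.0% of all tested genes, but Errfi1 did not pass (limma adjusted p = 0.114, unadjusted p = 0.0403).

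Of 23 tested genes of the Ras, RAF, MEK and ERK cascade and its adaptors, 3 fell and 0 rose, with a median difference of -0.067. Among all tested genes 13.0% fell and 11.5% rose, so lower calls were about as frequent in this list as elsewhere. At an unadjusted p below 0.05 there were 5 lower and 2 higher, and voom called 3 lower and 1 higher. Mapk3 (ERK1), which encodes a kinase that the phosphatases act on, was at 22.2 ± 1.93 and 21.7 ± 2.23 FPKM and did not pass (adjusted p = 0.840). Map2k1, which encodes the kinase MEK1, fell from 28.8 ± 1.25 to 23.5 ± 0.512 FPKM (limma adjusted p = 0.00825). Pea15a, whose product holds ERK in the cytoplasm, fell from 8.55 ± 0.581 to 5.56 ± 0.814 FPKM (limma adjusted p = 0.00734). The adaptor gene Grb2 fell from 56.5 ± 0.673 to 49.9 ± 2.06 FPKM, with an adjusted p of 0.0345 by limma and 0.0214 to 0.107 over the other settings, 7 of which ended the call. Pebp1, which encodes a RAF kinase inhibitor and was the most abundant of the list, was at 296 ± 8.67 and 305 ± 4.88 FPKM (adjusted p = 0.512).

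Of 5 tested Ras GTPase-activating proteins, which switch Ras off, 2 fell and 1 rose, beside 13.0% and 11.5% of all tested genes. Rasal3 fell from 46.8 ± 2.27 to 39.3 ± 1.03 FPKM, and leaving out DMSO replicate 2 ended this call (adjusted p = 0.0534). Rasa1 fell from 13.5 ± 0.827 to 10.6 ± 0.906 FPKM and Rasa2 rose from 3.84 ± 0.180 to 5.40 ± 0.643 FPKM. The calls for Rasa1 and Rasa2 each ended in 5 other settings, including 4 of the 6 omissions of a library. Rasa3, the most abundant, was at 54.2 ± 1.68 and 46.2 ± 4.57 FPKM (adjusted p = 0.0525).

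Upstream, of 13 growth factor and cytokine receptor genes tested, 6 rose and 1 fell, with a median difference of 0.24. The number that rose was 3 without DMSO replicate 1 and without haloperidol replicate 1 or 2, with 1 lower each time. Csf2rb, the signalling chain shared by several cytokine receptors, rose from 7.83 ± 0.909 to 17.4 ± 3.47 FPKM, a difference of 1.05 (SE 0.14, limma adjusted p = 0.00120), although reads may be split with its near-identical neighbour Csf2rb2. Csf2ra, the alpha chain of the GM-CSF receptor, rose from 13.3 ± 0.651 to 16.6 ± 0.198 FPKM (limma adjusted p = 0.00854).

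Of 15 tested genes listed here as other ERK outputs, 8 fell and 1 rose, with a median difference of -0.32. The list was drawn up from general knowledge and includes Elk3 and Rps6ka1 among the genes that fell. Whether ERK controls the transcripts of its genes in these cells was not tested. The number that fell was 6 when low values were kept. Egr1 was among those that fell, but its call ended in 8 of 18 other settings. Egr1, Fos and Ier3 are also among the immediate early genes counted below, so the lists are not separate. Elk3, an ETS factor, fell from 19.1 ± 0.209 to 12.4 ± 0.309 FPKM (limma adjusted p = 3.39e-04), and the cytokine gene Lif from 3.92 ± 0.334 to 1.32 ± 0.104 FPKM. Myc, a growth-promoting transcription factor, rose from 103 ± 3.49 to 143 ± 2.87 FPKM, a difference of 0.47 (SE 0.047, limma adjusted p = 3.80e-04). Fos, the most abundant, was at 1044 ± 40.3 and 1077 ± 77.6 FPKM and did not pass (adjusted p = 0.659).

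Of 14 tested kinases of the JNK and p38 pathways, 3 rose and 1 fell, beside 11.5% and 13.0% of all tested genes. Mapk13, a p38 isoform, rose from 1.22 ± 0.249 to 2.50 ± 0.185 FPKM and Mapk9 (JNK2) from 13.8 ± 1.25 to 17.7 ± 1.11 FPKM. The call for Mapk9 ended without haloperidol replicate 3 (limma adjusted p = 0.0562) and when low values were kept (limma adjusted p = 0.0501). Mapkapk2, a kinase activated by p38, rose from 110.00 ± 6.61 to 127 ± 3.69 FPKM, but the call was lost in 7 other settings. The gene that fell, Mapk14 (p38 alpha), went from 70.9 ± 1.176 to 62.7 ± 2.22 FPKM and lost its call in each omission of a library. Without haloperidol replicate 3 the counts were 1 higher and 0 lower.

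**Figure D4:**
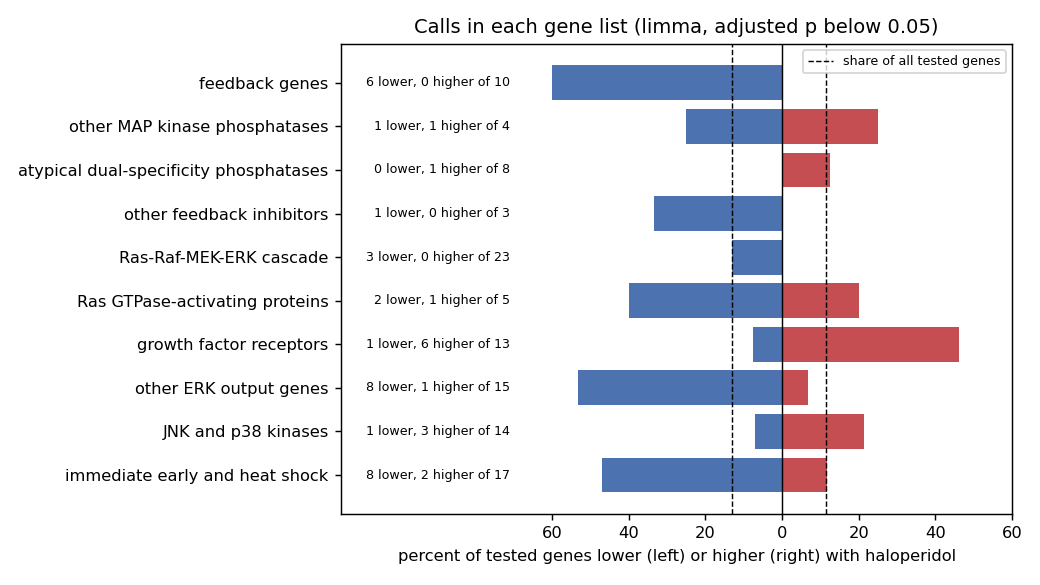
Percent of the tested genes of each list that were lower (left, blue) or higher (right, red) with haloperidol at a limma adjusted p below 0.05, with the counts printed beside the bars and dashed lines at the shares of all tested genes, 13.0% lower and 11.5% higher. The feedback genes have 6 of 10 lower, the other ERK output genes 8 of 15 and the immediate early and heat shock genes 8 of 17. The ERK output list and the immediate early list share Egr1, Fos and Ier3. The growth factor receptors have 6 of 13 higher.

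Dusp1 is also induced when tissue is digested and sorted, so immediate early and heat shock genes were counted beside it. Of 17 tested, 8 fell and 2 rose, with a median difference of -0.23, and their summed levels were 10963 to 11692 and 9106 to 9869.5 FPKM in DMSO and haloperidol libraries. Junb fell from 2030.3 ± 52.2 to 1526 ± 74.4 FPKM and the chaperone gene Hspa8 from 569 ± 15.6 to 450.5 ± 5.74 FPKM, while the stress factor gene Atf3 rose from 80.7 ± 2.69 to 114 ± 6.74 FPKM. Nr4a1, the most abundant of the list, fell from 2736 ± 158 to 2328 ± 159.8 FPKM, with an adjusted p of 0.0361 by limma and 0.00265 to 0.211 over the other settings, 8 of which ended the call. The part of these genes' shift in the fall of the feedback genes was not tested.

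Marker lists gave the makeup of the sorted cells. Of 12 LSK markers 6 fell and 1 rose, and they summed to 1321 to 1357 and 1153 to 1184 FPKM in DMSO and haloperidol. The stem cell transcription factor genes Hlf, Meis1 and Gata2 fell, Hlf from 30.6 ± 4.08 to 14.5 ± 2.36 FPKM, Meis1 from 27.7 ± 0.897 to 18.8 ± 1.28 FPKM and Gata2 from 99.4 ± 5.49 to 73.2 ± 5.48 FPKM. Cd34, the most abundant, fell from 648 ± 24.7 to 557 ± 19.4 FPKM. The call for Cd34 ended without DMSO replicate 2 (limma adjusted p = 0.066) and when low values were kept (limma adjusted p = 0.0598). The transcription factor genes Hoxa9 and Mecom of the same list did not pass. Hoxa9 was at 11.96 ± 0.383 and 10.96 ± 0.457 FPKM, lower without overlap (limma adjusted p = 0.223). Mecom was at 4.78 ± 0.286 and 4.52 ± 0.403 FPKM with overlap (limma adjusted p = 0.630). The receptor gene Flt3 rose from 103 ± 2.36 to 116 ± 5.21 FPKM, but the call was lost in 12 of 18 other settings. Of 8 B cell markers 3 were tested and all 3 fell, Ighm from 262 ± 18.7 to 102 ± 12.3 FPKM, Cd79b from 32.2 ± 1.12 to 22.8 ± 1.24 FPKM and Cd79a from 2.22 ± 0.567 to 0.752 ± 0.216 FPKM. The B cell markers summed to 278 to 313 and 115 to 139 FPKM, while the defining genes Pax5, Cd22, Ms4a1 and Ebf1 were below 1 FPKM in every library.

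Markers of monocytes, macrophages and dendritic cells summed to 105 to 122 and 137 to 169 FPKM. Of 5 tested, 1 rose, Cd68 from 16.2 ± 0.987 to 44.9 ± 3.90 FPKM, and 0 fell by limma, by voom or at an unadjusted p below 0.05. Cd14, the most abundant of the list, was at 80.5 ± 6.45 and 88.5 ± 11.8 FPKM and did not pass (adjusted p = 0.357). Cx3cr1, too low to be tested, was at 1.27 ± 0.129 and 0.383 ± 0.215 FPKM, with haloperidol lower and no overlap. Itgax, also too low, went the other way, at 0.577 ± 0.0685 and 1.08 ± 0.114 FPKM without overlap. Emr1 (F4/80) and Mrc1 were below 1 FPKM in every library. Of 4 endothelial markers tested 2 fell, Tie1 from 14.5 ± 1.07 to 10.1 ± 0.786 FPKM and Emcn from 4.92 ± 0.0600 to 3.83 ± 0.276 FPKM, the latter call ending in each omission of a library. The endothelial sums were 33.3 to 37.2 and 28.3 to 28.7 FPKM, and the defining gene Cdh5 had at most 2 reads.

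No call was made by limma among 7 neutrophil, 7 erythroid, 3 T and NK cell and 2 stromal markers. An unadjusted p below 0.05 was met by 1 erythroid and 1 stromal marker, both higher, and voom likewise called 1 of each. Summed levels were 163 to 276 and 168 to 298 FPKM for neutrophil markers (led by S100a8), 3593 to 4762 and 4161 to 5496 FPKM for erythroid markers (led by Hbb-bs), 316 to 337 and 276 to 324 FPKM for T and NK cell markers (led by Nkg7, with Cd8a at 0 and Cd3e at no more than 1 read) and 13.7 to 21.5 and 16.96 to 19.5 FPKM for stromal markers (led by Cxcl12, with Bglap at 0). The part of any shift in cell makeup in the fall of the feedback genes was not tested.

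Among tested genes with an established symbol, the patterns most like that of Dusp1 over the 6 libraries on the log2(FPKM + 1) scale included those of Cyb561a3 and Rabgef1, with Pearson's r of 0.999 and 0.998. Cyb561a3 was at 51.6 ± 1.85 and 33.2 ± 1.49 FPKM in DMSO and haloperidol and Rabgef1 at 71.3 ± 2.84 and 46.04 ± 3.26 FPKM. The 6 libraries fall into the 2 groups, so r over them mostly follows the difference between groups and is given as a description.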

How the data were processed

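RNA sequencing was compared between 3 DMSO and 3 haloperidol libraries of sorted mouse LSK cells. Per the labels' protocols, cDNA was made with a SMART-Seq low-input kit and libraries with a Nextera kit, which keeps no strand. The authors deposited 1 table of FPKM values. Per the submitters' processing notes, the genome build was mm10 and the tools were TopHat2 2.1.1, DESeq2 1.18.1, HTSeq 0.6.1 and bcl2fastq 2.19.1.403, with no roles stated. Annotation release and options for counting: not given in the sources used here. Within each library the FPKM were whole multiples of the worth of 1 read for 100.0% of the 20633 genes above 0 (within 0.001 reads), and the relative scale of the libraries equalled median-of-ratios size factors, so reads could be recovered. They served for depth and for 1 added alternative (limma's voom), chosen after seeing the data.

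Genes with a mean of at least 1 FPKM entered limma (3.58.1, under R 4.3.3) as log2(FPKM + 1) values (trend, two-sided, no covariate), with Benjamini-Hochberg adjustment over all 11436 genes at 0.05. Differences are haloperidol minus DMSO and understate changes of low genes. The test was tried on simulated reads. Pairs of libraries gave a chi-square of 2.80 to 4.48 per degree of freedom within groups and 12.1 to 17.0 between groups, so no pair of libraries agreed within sampling noise. The members, lists and named genes were chosen with earlier results of these data known. All 10 members are named, with Spry4, Nf1, Mapk3, Kit and Ly6a and, for each further list, up to 3 called genes with the smallest p and the 1 with the largest DMSO mean. Likeness was ranked for the called member with the smallest adjusted p. Spry3, Mapk14, Flt3, Cx3cr1, Itgax, Hoxa9, Mecom, Dusp11, Dusp19, Dusp22, Egr1, Ier3 and defining markers at or near 0 were named beyond that rule. Their values had been seen by then. Csf2rb2 and Ergic1 were named for shared reads. Some genes that this rule selects are not reported here.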

Additional observations from a re-analysis of the deposited data

How the results depend on the processing

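Of 178 values of single members under 18 other settings, 157 kept their direction and their side of the threshold. The calls that ended were those of Dusp2 (3 settings) and Spred1 (7 settings), given above. The number of members that fell was 4 to 5 when 1 library was left out, 4 with no filter on low values and 5 with the replicate number as a block, where Spred1 was lost (adjusted p = 0.0691), and none rose under any of the 18 settings. The number of all genes called was 1821 to 2148 when 1 library was left out, the lowest being without DMSO replicate 2. It was 2552 with the block, 1954 with no filter and 3338 with voom, against 2807. The block is not a pairing by design: deviations of same-numbered libraries correlated at 0.0095, 0.055 and 0.020, and DMSO replicate 1 correlated better with haloperidol replicate 3 (0.062) than with its own number. Direction turned for genes near 0 that passed in no setting. Spry2 was at 0.0076 with upper quartile scaling, 0.0021 with voom and -0.19 to 0.10 with 1 library left out, against -0.0088. Spred2 was at -0.0097 when rescaled to a common sum, -0.011 with quantile normalization and -0.095 to 0.092 with 1 library left out, against 0.0064. The cause was not tested, except that leaving out a library removes a sample. Upper quartile scaling turned the split of all calls to 1433 higher and 1321 lower, against 1320 and 1487. Counting error limits what can be said of Spry2, Spred2 and the untested Spry4.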
